A study of Mus musculus with 6 samples.

Results

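Chemokines that resting brain tissue expresses, and the receptors they act through, were followed in RNA of mouse brain tissue, which the labels place in the hypothalamic paraventricular nucleus. The 9 genes were chosen by name, with no threshold on measured values, and each was found once among the 51826 genes of the deposited table. They are the ligands Cx3cl1, Cxcl12, Cxcl14, Cxcl16, Ccl27a and Ccl25 and the receptors Cx3cr1, Cxcr4 and Ackr3. Mice lacking ADAM17 in their glutamatergic neurons (KO, replicates 1, 2 and F1) were compared with wildtype mice (WT, replicates 1, 2 and F1). In each genotype replicates 1 and 2 came from male and replicate F1 from female mice. The labels give neither the age of the mice, nor the driver that deleted the gene, nor whether a library held 1 animal or several, and they name no treatment for either genotype. Since nothing states that the libraries came from separate animals, p-values measure the spread between these libraries, which may be technical.

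Chemokines are small proteins that steer migrating cells through G protein-coupled receptors. They are grouped by the spacing of the first pair of cysteines in the mature protein. Most are induced by inflammation, but a few are made steadily in healthy brain. Fractalkine (Cx3cl1) is made by neurons, sits in the membrane on a mucin-like stalk and is released by the sheddases ADAM10 and ADAM17, while its receptor Cx3cr1 is carried by microglia. Cxcl12 signals through Cxcr4, and Ackr3 is an atypical receptor that takes up Cxcl12 and so limits how much of it reaches Cxcr4. Shedding acts on the protein and was not measured here.

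The coding stretches that carry the family-defining cysteines are shown for the 6 ligands because this spacing is what groups them, and because the stretch of Ccl27a also bears on how its reads could be counted. Each stretch has 36 bases of coding exon in GENCODE M21 (GRCm38), written 5′ to 3′ on the gene's strand, with the first pair of cysteine codons in capitals.
Cx3cl1: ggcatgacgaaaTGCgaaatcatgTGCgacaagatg
Cxcl12: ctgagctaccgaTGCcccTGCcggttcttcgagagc
Cxcl14: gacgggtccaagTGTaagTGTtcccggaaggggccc
Cxcl16: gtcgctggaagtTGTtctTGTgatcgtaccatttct
Ccl27a: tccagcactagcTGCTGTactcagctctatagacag
Ccl25: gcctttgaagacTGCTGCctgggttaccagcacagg
The stretches lie at chr8:94778039-94778074 (exon 2, plus strand) for Cx3cl1, chr6:117171496-117171531 (exon 2, plus strand) for Cxcl12, and chr11:70459112-70459147 (exon 2, minus strand) for Cxcl16. Those of Ccl27a and Ccl25 lie at chr4:41769927-41769962 (exon 2, minus strand) and chr8:4353885-4353920 (exon 3, plus strand). That of Cxcl14 crosses from exon 1 (chr13:56296110-56296113) into exon 2 (chr13:56295900-56295931) on the minus strand. The cysteine codons are 3 codons apart in Cx3cl1, 1 codon apart in Cxcl12, Cxcl14 and Cxcl16, and adjacent in Ccl27a and Ccl25. The chosen transcripts encode 395 codons for Cx3cl1 and 246 for Cxcl16, the pair that is anchored in the membrane, against 93 to 144 for the 4 secreted ligands.

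The libraries held 35114426 to 45355375 counts in KO and 40652708 to 54421330 in WT. Levels within a gene are given in CPM, counts relative to library size after TMM scaling (trimmed mean of M values). For the targeted gene Adam17 they were 15.4, 14.6 and 13.9 in the KO libraries 1, 2 and F1, against 17.1, 17.2 and 15.6 in the WT libraries 1, 2 and F1. Every KO library lay lower than every WT library, as in 7.32% of all genes, without passing the threshold (log2 fold change −0.19, SE 0.11, edgeR adjusted p = 0.747). The 11 markers listed for the labelled nucleus were mixed, summing to 432.0 to 507.5 CPM in KO and 392.6 to 536.7 CPM in WT. Sim1 stood at 0.626 to 1.1 CPM in KO and 0.683 to 2.51 CPM in WT and Avp at 5.25 to 13.8 CPM in KO and 5.96 to 38.2 CPM in WT, and Oxt, Crh, Trh, Otp and Scgn were also low. Sst, Nr3c1, Slc17a6 and Pou3f2 stood higher in the mean of each genotype. Sst was at 188.9 to 249.2 CPM in KO and 197.5 to 202.6 CPM in WT. In WT replicate F1, however, Pou3f2 (23.2 CPM) lay below Avp (38.2 CPM), Oxt (27.6 CPM) and Trh (23.4 CPM). Cortical Slc17a7 stood at 662 to 1019 CPM in KO and 672 to 823 CPM in WT. Libraries also differed in the regions they reflected. The cerebellar gene Cbln3 stood at 33.5 CPM in KO replicate 1 and 65.5 CPM in WT replicate F1, and between 0.294 and 2.14 CPM in the other libraries. KO replicate 1 further had 20.6% mitochondrial counts, against 7.22% to 9.2% elsewhere. WT replicate 1 had a summed level of 98.7 CPM for a list of 14 lymphocyte and myeloid markers, against 19.7 to 23.8 CPM in the other 5 libraries. Results are therefore also given without KO replicate 1 and WT replicate F1, in a fit with no sex term whose lone female library is KO replicate F1, so that sex enters its contrast.

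The 9 genes spanned a wide range of levels, with the 4 highest all ligands and the lowest, Cxcl16, a ligand too. Levels were compared between genes in the deposited TPM, which are scaled by transcript length. Cxcl14, a chemokine of neurons whose receptor is not settled, had the highest TPM of the 9, with 98.6, 150.7 and 145.5 TPM in KO libraries 1, 2 and F1 and 150.7, 153.3 and 128.8 TPM in WT libraries 1, 2 and F1. Cx3cl1 followed with 69.95, 126.2 and 121.2 TPM in KO and 130.5, 137.2 and 87.6 TPM in WT. Next came Ccl27a, a chemokine best known from skin, with 58.4, 92.6 and 119.7 TPM in KO and 118.9, 114.2 and 83.5 TPM in WT. Each of these stood above the next in 6 of 6 libraries, although their ranges over libraries overlapped. Cxcl12 stood at 16.0 to 30.25 TPM in KO and 31.96 to 36.3 TPM in WT, below Ccl27a and above Ccl25 in 6 of 6 libraries. Ccl25, best known from thymus and gut, had 7.3 to 11.96 TPM in KO and 8.57 to 13.4 TPM in WT, and did not separate from Ackr3 (5.98 to 9.01 TPM in KO, 7.09 to 8.83 TPM in WT), being higher in 4 of 6 libraries. Cx3cr1, at 1.52 to 3.64 TPM in KO and 3.31 to 4.13 TPM in WT, exceeded Cxcr4, at 2.19 to 2.74 TPM in KO and 2.51 to 2.92 TPM in WT, in 5 of 6 libraries, so this pair also did not separate. Cxcl16 was lowest in all libraries, at 1.19 to 1.91 TPM in KO and 1.72 to 2.57 TPM in WT. Against the 18956 genes tested, mean TPM ranged from the 94.5th percentile for Cxcl14 to the 21.9th for Cxcl16.

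**Figure D1:**
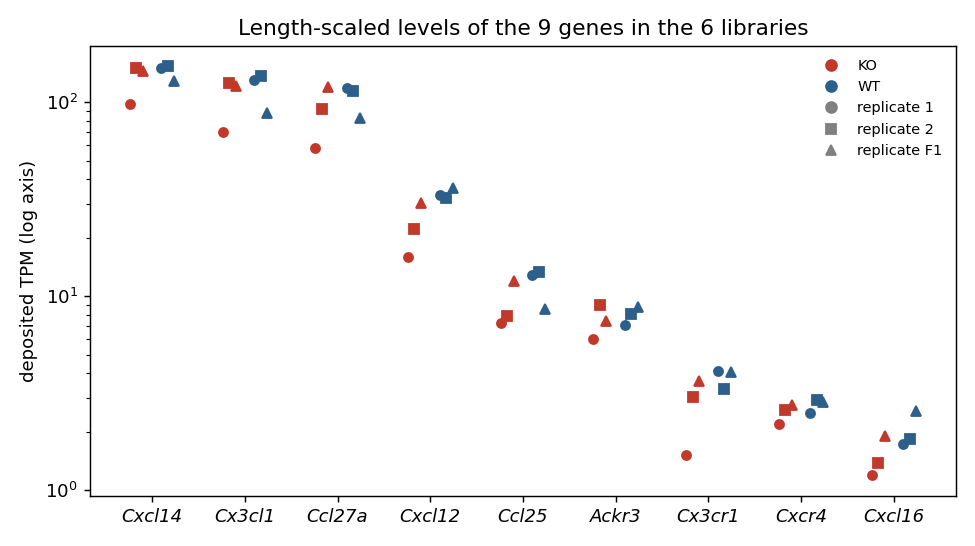
Deposited TPM (log axis) of the 9 genes in each library, KO left of WT within each gene, with a marker for each replicate. Cxcl14, Cx3cl1 and Ccl27a form the upper group, and KO replicate 1 is the lowest KO point for each gene.

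The low TPM of KO replicate 1 came with a large mitochondrial share, whose part in those values was not tested. Mitochondrially encoded genes took 38.65% of all TPM in that library, against 17.1% to 19.6% in the other KO libraries and 16.1% to 16.9% in the WT libraries. TPM also depends on a length that the deposited values set anew in each library. The counts per TPM, scaled to each library, varied by a factor of 1.0 to 1.11 over libraries for Cxcl14, Ackr3, Cx3cr1, Cx3cl1, Ccl27a and Cxcl12, but by 1.32 for Ccl25, 1.44 for Cxcl16 and 1.52 for Cxcr4. The comparison of genotypes was therefore made on counts and is described in TMM-scaled CPM.

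The main comparison set KO against WT. All 9 chemokine and receptor genes were expressed enough to test, and none passed. Across all genes 0.00528% passed (edgeR, adjusted p under 0.05), and DESeq2 called 0 of the 9 as well, against 0.423% of its genes. At an unadjusted p under 0.05 edgeR had 1 of the 9, against 6.38% of all genes (2.53% lower and 3.85% higher in KO). That gene was Cxcl12, and it was also the single gene of the 9 whose libraries did not overlap between genotypes, against 13.9% of all genes. All 3 of its KO libraries lay below the WT libraries, as in 7.32% of all genes, and none of the 9 lay wholly above, as 6.61% of all genes did. Among the 9, 3 had log2 fold changes below 0, against 50.6% of all genes, with a median of 0.05 beside −0.00 over all genes tested. This split depends on the scaling, since library totals shifted the median of all genes to −0.17 and put 7 of the 9 below 0, and the TPM settings shifted it to −0.24 and −0.29 and put all 9 below 0. Relative to those medians 3 of the 9 lay below with library totals, 5 with log2(TPM + 1) and 4 with log2(TPM + 0.1). In the males alone none of the 9 passed, where 0.0947% of all genes did, and Cxcl12 alone had an unadjusted p under 0.05, against 8.76% of all genes. The unadjusted count changed when single libraries were left out. Without KO replicate 1 it was 3, with Cx3cl1 (0.27) and Cxcl14 (0.18) beside Cxcl12, against 8.48% of all genes in that fit. Without WT replicate 1 or WT replicate 2 it was 0, against 2.66% and 3.23% of all genes, and Cxcl12 itself missed that threshold (edgeR unadjusted p = 0.0589 and 0.0568). Its log2 fold change was −0.34 and −0.35 in these fits, beside −0.37 over all libraries, with an SE of 0.15 in both, beside 0.11.

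**Figure D2:**
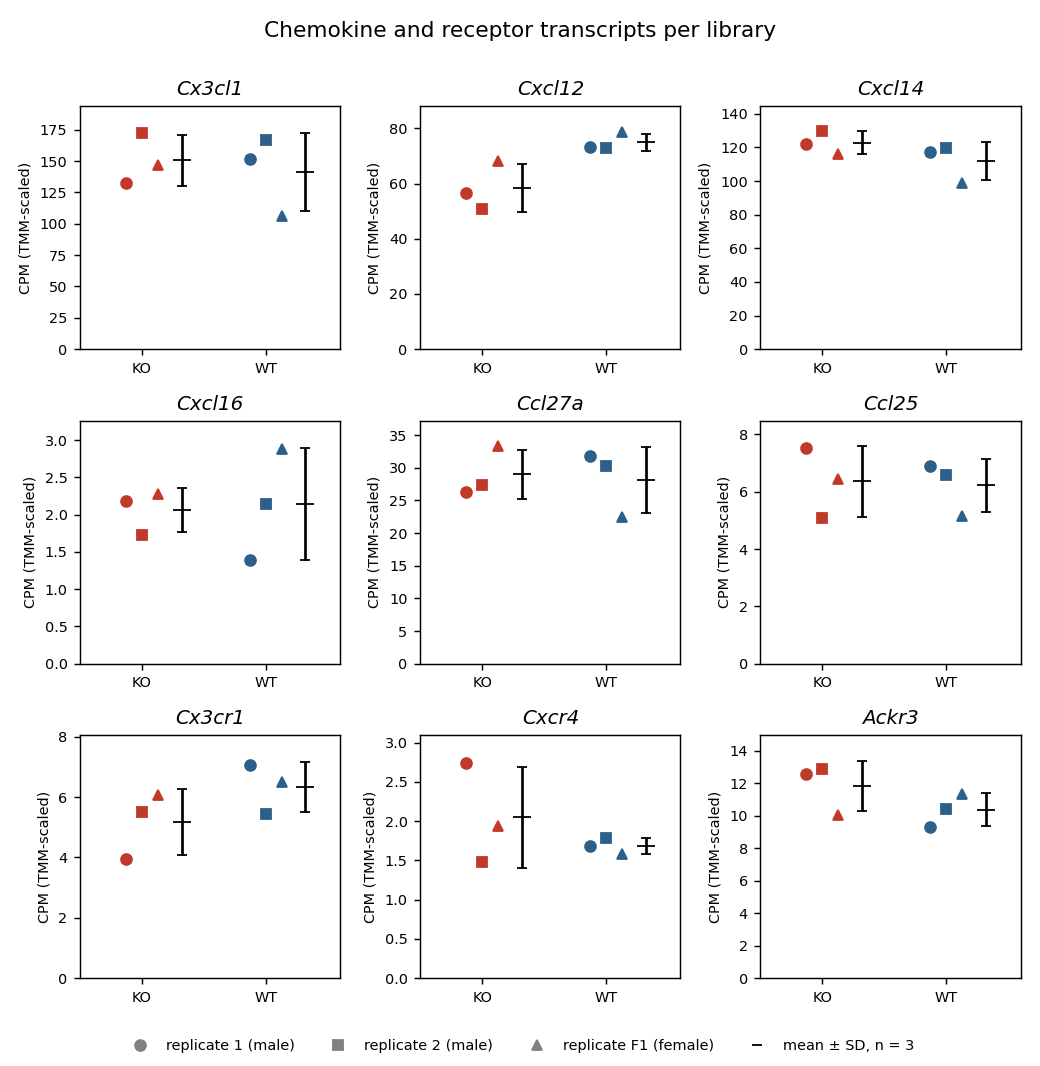
TMM-scaled CPM of each gene in the KO libraries (left) and WT libraries (right), with a marker for each replicate and the mean ± SD (n = 3) beside them. In Cxcl12 the 3 KO libraries lie between 50.65 and 68.0 CPM, below all WT libraries, while the genotypes overlap in the other 8 genes.

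Cxcl12 (stromal cell-derived factor, chromosome 6, 117168535 to 117181367, plus strand) attracts lymphocytes and neural progenitors and is made by vessels, meninges and some neurons. It stood at 56.7, 50.65 and 68.0 CPM in KO libraries 1, 2 and F1, against 73.3, 72.8 and 78.5 CPM in WT libraries 1, 2 and F1. The gap was wide between the males and narrow between the highest KO library, the female, and the lower WT males. The means were 58.4 ± 8.81 CPM in KO and 74.9 ± 3.19 CPM in WT (SD, n = 3 each), so that the KO mean was 78.05% of the WT mean. Its log2 fold change of −0.37 (SE 0.11, 95% interval −0.62 to −0.11) missed the threshold (edgeR unadjusted p = 0.0115, adjusted p = 0.735, rank 248 of 18956 genes by p). The adjusted p ranged from 0.292 with DESeq2 to 0.999 over the alternatives, and the log2 fold change was below 0 in 20 of 20 of them. These alternatives reuse the same libraries, so their shared sign is not separate evidence. Without KO replicate 1 and WT replicate F1 the log2 fold change was −0.30 (SE 0.15).

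Marker lists of the vascular and meningeal cells that make Cxcl12 overlapped between the genotypes. The endothelial list (14 of 14 genes tested) summed to 465 to 551 CPM in KO and 453 to 539 CPM in WT, with none of its genes at 0. Pericyte and smooth muscle markers (10 of 10) summed to 322 to 338 CPM in KO and 272 to 369 CPM in WT. Fibroblast and meningeal markers (11 of 11) summed to 181 to 236 CPM in KO and 160.5 to 249.9 CPM in WT, with none at 0 in either list. Pdgfra and Igf2 led the fibroblast sum, with means of 57.7 and 44.7 CPM in KO and 56.85 and 43.8 CPM in WT. By mean log2 CPM the same list stood at 3.37 to 3.88 in KO and 3.26 to 4.06 in WT. In bulk tissue, fewer cells of a type and less RNA per cell cannot be told apart. Of the 18 marker lists, the list of GABA neurons alone differed without overlap (11 of 12 genes tested). It summed to 1517 to 1590 CPM in KO and 1358 to 1466 CPM in WT. Among all single genes, 6.61% lay wholly above in KO and 13.9% did not overlap in either direction. The part of these marker lists in the Cxcl12 values was not tested.

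Both receptors of Cxcl12 overlapped between the genotypes. Cxcr4 (chromosome 1, 128588199 to 128592293, minus strand) stood at 2.75, 1.48 and 1.94 CPM in KO libraries 1, 2 and F1, against 1.68, 1.79 and 1.58 CPM in WT libraries 1, 2 and F1. Its KO libraries enclosed the WT range, with KO replicate 1 high and KO replicate 2 low (log2 fold change 0.28, SE 0.28, 95% interval −0.40 to 0.95, edgeR adjusted p = 0.823). These values rest on 66 to 93 counts per library, where counting alone gives an error of up to 12.3%. Without KO replicate 1 the log2 fold change was 0.00, without KO replicate 2 it was 0.51, and without KO replicate 1 and WT replicate F1 it was −0.02 (SE 0.26).

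Ackr3 (chromosome 1, 90203980 to 90216751, plus strand) stood at 12.5, 12.9 and 10.05 CPM in KO libraries 1, 2 and F1, against 9.3, 10.4 and 11.3 CPM in WT libraries 1, 2 and F1. Both KO males lay above both WT males, while the female KO library lay below the female WT library. Over all libraries the log2 fold change was 0.19 (SE 0.16, 95% interval −0.19 to 0.56, edgeR adjusted p = 0.796), and it was 0.37 (SE 0.16, adjusted p = 0.566) in the males alone. It was 0.09 without WT replicate 1, 0.13 without KO replicate 2, and 0.22 (SE 0.16) without KO replicate 1 and WT replicate F1. The term for a genotype effect that differs between the sexes was −0.54 (SE 0.27, edgeR unadjusted p = 0.0928, adjusted p = 0.777).

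A ratio of counts within a library needs no scaling between libraries. Cxcl12 had 4.52, 3.93 and 6.77 counts per Ackr3 count in KO libraries 1, 2 and F1, against 7.88, 6.99 and 6.93 in WT libraries 1, 2 and F1. It had 20.65, 34.3 and 35.1 counts per Cxcr4 count in KO, against 43.6, 40.7 and 49.7 in WT. Both ratios were lower in every KO library than in any WT library, the Ackr3 ratio by a small margin in the females. The ratios were formed after the values were known, share Cxcl12 as numerator, and carry no test.

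Fractalkine and its receptor form the other ligand and receptor pair. Cx3cl1 (chromosome 8, 94772009 to 94782427, plus strand) stood at 132.3, 172.7 and 147.2 CPM in KO libraries 1, 2 and F1, against 151.3, 166.5 and 106.3 CPM in WT libraries 1, 2 and F1. The groups overlapped, and the female WT library was lowest of all. The means were 150.7 ± 20.4 CPM in KO and 141.4 ± 31.3 CPM in WT (SD, n = 3 each). Its log2 fold change was 0.12 (SE 0.16, 95% interval −0.26 to 0.49, edgeR adjusted p = 0.867), with a value of −0.06 in the males alone and 0.01 (SE 0.10) without KO replicate 1 and WT replicate F1.

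Marker lists of forebrain and cerebellum, in which the libraries differed, are given beside Cx3cl1. The cortex and hippocampus list (13 of 13 genes tested, none at 0) summed to 1825, 2068 and 1751 CPM in KO libraries 1, 2 and F1, and to 1753, 1844 and 1307 CPM in WT libraries 1, 2 and F1. KO replicate 2 was highest and WT replicate F1 lowest in both this sum and Cx3cl1. The sum is led by Slc17a7, and by the mean log2 CPM of the same list KO replicate 1 was highest (6.46), ahead of KO replicate 2 (6.34), with WT replicate F1 lowest again (5.596). The cerebellar list (8 of 8 genes tested) summed to 425.8, 227.8 and 234.8 CPM in KO and to 261.8, 211.0 and 464.2 CPM in WT, so that KO replicate 1 and WT replicate F1, the libraries with the least Cx3cl1, had the most of it. Gabra6, a defining gene of cerebellar granule cells, was at 0 in KO replicate F1 and WT replicate 1. The part of these regions in the Cx3cl1 values was not tested.

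**Figure D3:**
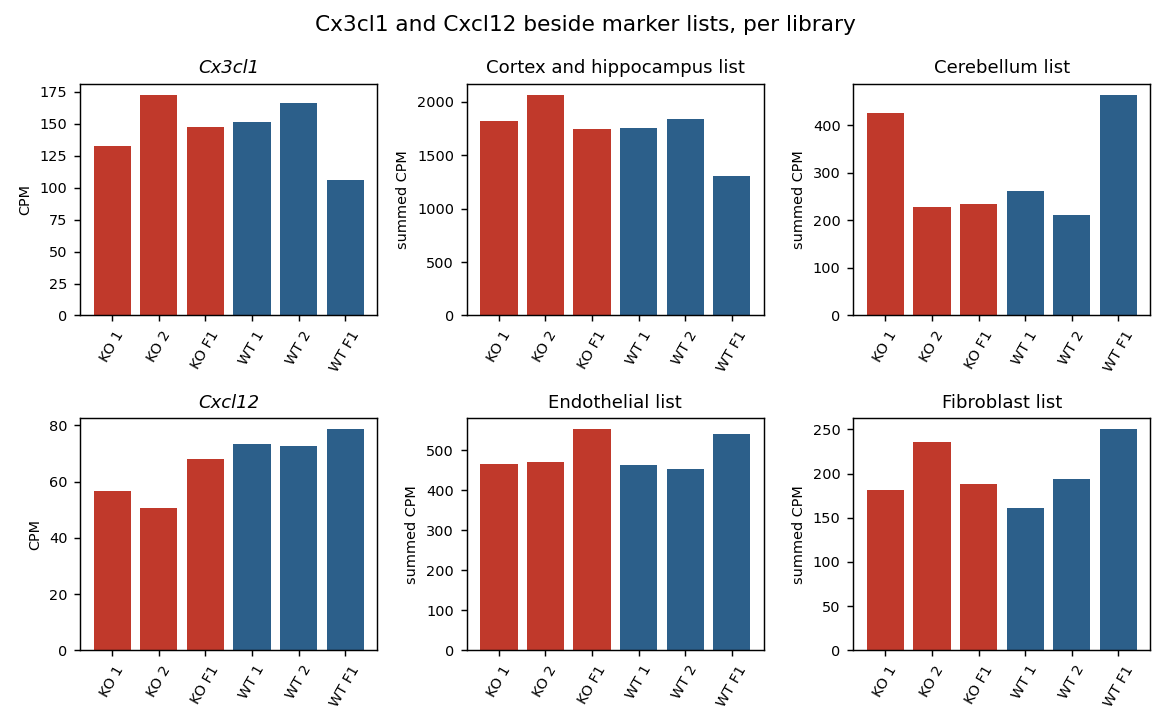
Per library, CPM of Cx3cl1 and Cxcl12 (left column) beside the summed CPM of 4 marker lists, KO bars (red) left of WT bars (blue). WT replicate F1 has the least Cx3cl1 (106.3 CPM), the lowest cortex and hippocampus sum (1307 CPM) and the highest cerebellar sum (464.2 CPM). The endothelial and fibroblast sums overlap between genotypes, and their part in the Cxcl12 values was not tested.

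Cx3cr1 (chromosome 9, 119901616 to 120069879, minus strand) stood at 3.96, 5.5 and 6.05 CPM in KO libraries 1, 2 and F1, against 7.07, 5.44 and 6.49 CPM in WT libraries 1, 2 and F1. KO replicate 1 was lowest and WT replicate 1 highest, and the other libraries overlapped. This gave a log2 fold change of −0.30 (SE 0.20, 95% interval −0.78 to 0.18, edgeR adjusted p = 0.772), −0.15 without KO replicate 1, −0.16 without WT replicate 1, and −0.11 (SE 0.18) without KO replicate 1 and WT replicate F1. The microglial list (19 of 20 genes tested) summed to 427, 532 and 481 CPM in KO and 497, 473 and 447 CPM in WT. KO replicate 1 was lowest in this sum, but not in each gene. P2ry12 (34.0 CPM), Sall1 (51.0 CPM) and Cd68 (14.6 CPM) were highest there of all libraries. These 3 alone of the list had an unadjusted p under 0.05 (edgeR), all higher in KO, against 3.85% of all genes in that direction. Log2 fold changes of the list lay above 0 in 9 genes and below 0 in 10. Itgam, a defining gene of myeloid cells, was listed at 0 in every library, but only the first gene model of that name was taken. Whether another gene model holds its reads was not checked, so this 0 does not show that the transcript was absent. Csf1r, also of this list, stood at 66.1 to 92.4 CPM in KO and 73.7 to 84.6 CPM in WT. WT replicate 1, highest in Cx3cr1, was also the library with the highest sum of lymphocyte and myeloid markers. That sum was led there by Ngp (30.8 CPM) and S100a9 (24.8 CPM). Ptprc of the same list was higher in WT replicate F1 (6.56 CPM) than in WT replicate 1 (5.77 CPM). The part of the microglial list or of this list in the Cx3cr1 values was not tested. The gene model overlaps other genes, among them Wdr48 and Gorasp1, and 1.06% of its 4453 distinct transcript stretches of 50 bases also occur in transcripts of other genes. Cx3cl1 had 33.4, 31.4 and 24.3 counts per Cx3cr1 count in KO libraries 1, 2 and F1, against 21.4, 30.6 and 16.4 in WT libraries 1, 2 and F1, and the genotypes overlapped in this ratio.

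Cxcl14 (chromosome 13, 56288647 to 56296551, minus strand) was the steadiest of the 9 genes. It stood at 122.3, 129.8 and 116.3 CPM in KO libraries 1, 2 and F1, against 117.1, 119.8 and 99.0 CPM in WT libraries 1, 2 and F1. The female WT library was lowest and the other 5 lay within 116.3 to 129.8 CPM. KO over WT this was a log2 fold change of 0.14 (SE 0.09, 95% interval −0.08 to 0.35, edgeR adjusted p = 0.769), and 0.06 (SE 0.08) without KO replicate 1 and WT replicate F1. Its standard deviation over the 6 libraries was 0.13 on the log2 CPM scale, against 0.18 to 0.35 for the other 8 genes.

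Cxcl16 (chromosome 11, 70453983 to 70459984, minus strand), a membrane-anchored ligand that is shed like fractalkine, stood at 2.19, 1.72 and 2.28 CPM in KO libraries 1, 2 and F1, against 1.39, 2.14 and 2.89 CPM in WT libraries 1, 2 and F1. The WT libraries spread beyond the KO range on both sides. Its log2 fold change was −0.03 (SE 0.26, 95% interval −0.66 to 0.61, edgeR adjusted p = 0.985) on 63 to 170 counts per library, and 0.18 (SE 0.31) without KO replicate 1 and WT replicate F1. Cxcl16 overlaps Zmynd15 on the opposite strand, and 16.9% of its stretches of 50 bases occur there in reverse. Without a stated strand setting, reads from these stretches could come from either gene, and their number was not measured. Zmynd15 held 43 counts over the KO and 47 over the WT libraries, against 233 and 324 for Cxcl16. Its receptor Cxcr6 had 8, 3 and 0 counts in KO and 4, 0 and 0 counts in WT, too few to test.

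Ccl27a (chromosome 4, 41769467 to 41774247, minus strand) stood at 26.2, 27.4 and 33.3 CPM in KO libraries 1, 2 and F1, against 31.8, 30.25 and 22.4 CPM in WT libraries 1, 2 and F1. In males both KO libraries lay below both WT libraries, while the female KO library was the highest of all and the female WT library the lowest. The log2 fold change was 0.05 (SE 0.17, 95% interval −0.37 to 0.47, edgeR adjusted p = 0.948) over all libraries, −0.21 (SE 0.13, adjusted p = 0.632) in males, and −0.03 (SE 0.11) without KO replicate 1 and WT replicate F1. The term for a genotype effect that differs between the sexes was 0.78 (SE 0.23, edgeR unadjusted p = 0.0143), and it did not pass over all genes (adjusted p = 0.441).

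Ccl27a has close copies on the same chromosome, and its count is uncertain for that reason. Of its 2677 distinct transcript stretches of 50 bases, 45% also occur in other gene models, with 28.4% in Gm20878, 22% in Gm13306 and 8.63% in Ccl27b. The cysteine stretch of Ccl27a shown above occurs unaltered in Ccl27b and Gm13306. The 5 gene models whose transcripts share sequence in the same direction held 29.2%, 25.9% and 22.55% of the joint counts in KO libraries 1, 2 and F1, and 30.4%, 34.9% and 20.05% in WT libraries 1, 2 and F1. Summed with these models, Ccl27a stood at 37.1, 37.0 and 42.9 CPM in KO, against 45.6, 46.5 and 28.0 CPM in WT. As for Ccl27a alone, both KO males lay below both WT males and the females lay the other way round. Ccl27a also overlaps Il11ra1 on the opposite strand, by 8 bases. Ccr10, the receptor of Ccl27a, stood at 0.2085 to 0.637 CPM in KO and 0.518 to 0.795 CPM in WT.

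Ccl25 (chromosome 8, 4325210 to 4360020, plus strand) stood at 7.54, 5.1 and 6.45 CPM in KO libraries 1, 2 and F1, against 6.91, 6.6 and 5.16 CPM in WT libraries 1, 2 and F1. The genotypes overlapped over nearly the whole range. Its log2 fold change was 0.04 (SE 0.20, 95% interval −0.44 to 0.52, edgeR adjusted p = 0.966), and it was −0.09 without KO replicate 1, 0.23 without KO replicate 2, and −0.23 (SE 0.17) without KO replicate 1 and WT replicate F1. Its receptor Ccr9 stood at 0.196 to 0.521 CPM in KO and 0.309 to 0.764 CPM in WT and did not pass (edgeR adjusted p = 0.849). Elavl1 overlaps Ccl25 on the opposite strand and holds 2.06% of its stretches of 50 bases.

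**Figure D4:**
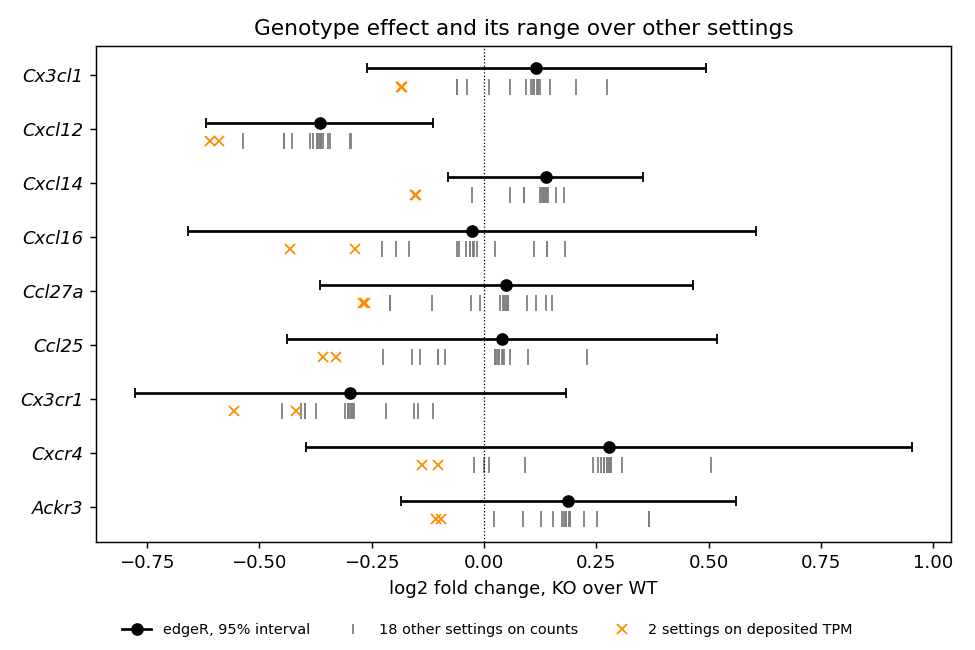
Log2 fold change of KO over WT for each gene with its 95% interval (black), the values under 18 other settings on counts (grey ticks) and under 2 settings on deposited TPM (orange crosses). The interval of Cxcl12 alone lies below 0, and only Cxcl12 and Cx3cr1 stay below 0 in each of the 20 other settings, which reuse the same libraries.

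Sex was the other factor in the labels. None of the 9 genes passed between female and male libraries, where 0.0422% of all genes did (edgeR, adjusted p under 0.05), and none had an unadjusted p under 0.05, against 4.58% of all genes. Cxcl12 stood at 73.3 CPM in the mean of the 2 female libraries and 63.3 CPM in that of the 4 male libraries (log2 difference, female minus male, 0.22, SE 0.11, adjusted p = 0.941). Cx3cl1 stood at 126.7 CPM in females and 155.7 CPM in males (−0.31, SE 0.17, adjusted p = 0.941). No gene of the 9 passed the test of a genotype effect that differs between the sexes, where 0.0739% of all genes did, and Ccl27a alone had an unadjusted p under 0.05, against 7.42% of all genes. Each genotype has 1 female library.

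The remaining chemokine system was described from 4 lists. Of 33 other chemokine ligands 11 were expressed enough to test, and none passed (edgeR; 1 at an unadjusted p under 0.05, against 6.38% of all genes), with a median log2 fold change of −0.09. Ccl28, a mucosal chemokine, had the smallest p, at 4.41 ± 1.16 CPM in KO and 2.33 ± 0.88 CPM in WT (SD, n = 3 each; log2 fold change 0.93, edgeR adjusted p = 0.735). Ccl3 (0.92), Ccl6 (−0.36) and Cxcl5 (0.42) came next by p. The inflammatory ligand Ccl2 had 8, 17 and 3 counts in KO and 0, 5 and 11 counts in WT, and Ccl5 had 5, 10 and 12 counts in KO and 0, 5 and 10 counts in WT, both below the filter. Of 22 other receptors 10 were tested and none passed (edgeR; 0 at an unadjusted p under 0.05, against the same 6.38%), with a median of −0.05. Ackr1, the scavenging receptor of venules, stood at 24.8 ± 4.07 CPM in KO and 21.6 ± 2.255 CPM in WT (SD, n = 3 each), while Ccr6 (0.59) and Ccr2 (−0.50) were below 1 CPM. Ackr4, an atypical receptor that binds Ccl25, had 6, 23 and 7 counts in KO and 10, 6 and 21 counts in WT.

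Downstream of the receptors, 30 names of G proteins, arrestins, receptor kinases and Rac signalling were listed. The 28 found in the deposited data were all expressed enough to test, and none passed (edgeR), with a median of 0.07. At an unadjusted p under 0.05 edgeR had 3, all higher in KO, against 3.85% of all genes in that direction and 6.38% in either. The GTPase gene Rac1, which drives cell protrusion, stood at 524, 379 and 354 CPM in KO libraries 1, 2 and F1, against 340, 141 and 140 CPM in WT libraries 1, 2 and F1 (log2 fold change 1.05, SE 0.34, edgeR adjusted p = 0.735). All KO libraries lay above the WT libraries, as in 6.61% of all genes, WT replicate 1 being close to the lowest KO library. The phosphoinositide kinase subunit gene Pik3r5 (0.51), the receptor kinase gene Grk2 (0.39) and the G protein gene Gnao1 (0.42) had the next smallest p. Of 22 genes for cleavage, presentation or co-receptors of chemokines none passed (edgeR; 1 at an unadjusted p under 0.05, against 6.38% of all genes), with a median of −0.07. The integrin gene Itgav stood at 71.0 ± 13.3 CPM in KO and 41.9 ± 22.5 CPM in WT (SD, n = 3 each; 0.82, adjusted p = 0.735), followed by Frmd8 (−0.28), Mmp9 (−0.88) and Ctss (−0.23). Mmp9 was highest in WT replicate 1 (5.54 CPM), against 1.67 and 2.45 CPM in WT replicates 2 and F1. In KO libraries 1, 2 and F1 it stood at 1.6, 1.94 and 1.62 CPM. DESeq2 called 0 genes of the 4 lists.

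For the 3 genes that varied most over the 6 libraries, the protein-coding genes of at least 5 CPM with the most similar course were sought among 11650, by the root mean square difference of mean-centred log2 CPM. For Cx3cr1 these were Ppox (0.04), Fdxr (0.05) and Chac1 (0.05), against a standard deviation of 0.29 for Cx3cr1 itself. For Cxcr4 they were Zfp930 (0.06), Rbpj (0.06) and Far1 (0.07), against 0.31. For Cxcl16 they were Fam168a, Amy1 and Gata2 (each 0.12), against 0.35. With 6 libraries and so many candidates such closeness is a description of these libraries. Cxcl16, Cxcr4 and Cx3cr1 also had the lowest counts of the 9 genes, at 63, 66 and 114 in their lowest libraries. Counting alone gives an error of up to 12.6%, 12.3% and 9.37% there, and its part in their spread was not tested.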

How the data were processed

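The members and gene lists were chosen with earlier results of these data known. For each gene and library the deposited files hold a raw count, a TPM and an FPKM made by the authors, per the file headers. The tools bedtools 2.26.0, FastQC 0.11.2 and Trimmomatic 0.36 appear in the submitters' processing notes, while the genome build, aligner, counter and strand handling were not given in the sources used here. Of the gene identifiers 99.6% matched GENCODE M21 and 94.2% of these had identical GRCm38 coordinates. The deposited FPKM was a constant multiple of the deposited TPM within a library and was only checked.

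Counts were filtered with filterByExpr, which kept 18956 genes, scaled by TMM and tested with edgeR 4.0.16 (R 4.3.3) by robust quasi-likelihood on genotype plus sex. Benjamini-Hochberg adjustment covered all genes tested, at 0.05. An SE is the size of the log2 fold change over the root of F, with t intervals at 95%. A gene at 0 allows up to 3 counts, 0.0509 to 0.104 CPM, for counting error alone. Alternatives were other scalings and filters, DESeq2 1.42.0, limma 3.58.1 with voom or with log2(TPM + 1) and log2(TPM + 0.1), no sex term, a replicate block, males only, gene subsets and left-out libraries. Same-numbered libraries did not deviate together, so the block is only an alternative.

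Genes named are the 9, Adam17, paired receptors, Ccl2, Ccl5, overlapping genes and copies, and from each pathway list the 4 with the smallest p. Of these, 1 gene is not reported here. The 3 genes most like each of the 3 most variable members are also named. Single marker genes were named after their values were seen.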

Additional observations from a re-analysis of the deposited data

How the results depend on the processing

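No gene of the 9 and no gene of the 4 chemokine lists passed the threshold in any of the 20 alternatives. Across all genes the count past the threshold, 1 with edgeR, was 74 with DESeq2, 4 with no filter on low counts, 4 with voom weights, 4 and 5 with limma-trend on log2(TPM + 1) and log2(TPM + 0.1), 3 with no sex term, 18 in males only, 27 without WT replicate F1 and KO replicate 1, and 0 to 20 when leaving out 1 library. With the replicate block it was 0, and the log2 fold change of Cxcl12 was −0.37 (adjusted p = 0.837). Same-numbered libraries correlated by −0.04 to 0.02 in their deviations.

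Library totals shifted the median of all genes to −0.17, and the TPM settings to −0.24 and −0.29. Under library totals the log2 fold changes turned to −0.038 for Cx3cl1, −0.026 for Cxcl14, −0.12 for Ccl27a and −0.14 for Ccl25. With log2(TPM + 1) they were −0.18 for Cx3cl1, −0.15 for Cxcl14, −0.27 for Ccl27a, −0.33 for Ccl25, −0.10 for Cxcr4 and −0.095 for Ackr3, and with log2(TPM + 0.1) −0.18, −0.15, −0.27, −0.36, −0.14 and −0.11 in that order. Relative to the median, Cxcl12 lay at −0.37 with library totals and at −0.35 and −0.32 in the TPM settings. In males only, signs turned for Cx3cl1 (−0.059), Cxcl16 (0.14), Ccl27a (−0.21) and Ccl25 (−0.10). Voom weights gave −0.0095 for Ccl27a and −0.16 for Ccl25. Without WT replicate F1 and KO replicate 1, signs turned for Cxcl16 (0.18), Ccl27a (−0.029), Ccl25 (−0.23) and Cxcr4 (−0.023). Leaving out 1 library at a time gave −0.059 to 0.27 for Cx3cl1, −0.23 to 0.14 for Cxcl16, −0.21 to 0.15 for Ccl27a and −0.10 to 0.23 for Ccl25, with no change of sign for Cxcl12 (−0.45 to −0.30), Cxcl14 (0.09 to 0.18), Cx3cr1 (−0.41 to −0.15), Cxcr4 (0.00 to 0.51) and Ackr3 (0.09 to 0.37). The cause of these turns was not tested. Leaving out either female library leaves the male contrast. The alternatives for the sex and interaction tests were chosen after seeing the data and called 0 of the 9 genes. Depth limits Cxcl16 and Cxcr4 most, at 63 and 66 counts in their lowest libraries.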
